A study of Mus musculus with 48 samples.

Results

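The genes described here are 35 genes linked to the antioxidant defence. They include the transcription factor Nrf2 and its regulators. Most others encode enzymes that make and use glutathione, thioredoxin and peroxiredoxin or that remove superoxide and hydrogen peroxide. A few act downstream of Nrf2 in other ways or in lipid peroxidation. The genes were taken by name, with no filter on measured values, from a list chosen with earlier results of these data known. All 35 were found among the 54735 genes counted in each RNA-seq library. The libraries came from splenic monocytes (Ly6Glo CD11bhi F4/80-), pre-RPMs (Ly6Glo CD11bhi F4/80lo) and red pulp macrophages, RPMs (Ly6Glo CD11blo/- F4/80hi), the phagocytes that clear aged red blood cells. Each cell type was sorted from 4 WT mice and 4 mice labelled *Il1rl1*-/-, which should lack the receptor for the cytokine IL-33, so that 6 groups of 4 libraries, 24 in all, were compared. All mice were male Balb/c mice of 10 weeks with no further treatment stated, each library came from a single mouse, and the same mouse number within a genotype marks 1 animal. The 24 chromatin accessibility samples of the study were not analysed here.

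Nrf2, encoded by *Nfe2l2*, is bound by Keap1 and sent for degradation until oxidants or electrophiles modify Keap1. Nrf2 then pairs with a small Maf protein such as Mafg or Maff and binds antioxidant response elements, sites that the repressor Bach1 occupies until it binds heme. The genes under such elements make glutathione, recycle oxidized thioredoxin and peroxiredoxins, and break down heme, the load that RPMs take in with red cells.

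The libraries held between 3562367 and 6559454 counted read pairs, of which the 35 genes took between 0.0825% and 0.1844%. Levels are CPM, counts relative to the size of the library, scaled with TMM factors. Counts of up to 3 were read as no signal, a floor that covers counting error only. RPM markers followed the sort, with the summed CPM of 8 of them between 4842.6 and 7042.5 in RPMs and between 37.6 and 276.7 in the other libraries. Monocyte markers did not. The summed CPM of 6 of them was between 597.4 and 1312.5 in monocytes, between 1150.1 and 1578.2 in pre-RPMs and between 1374.7 and 1765.2 in RPMs. In RPMs, *Csf1r*, which macrophages also express, was higher than in pre-RPMs and the other 5 were lower in both genotypes. Other cell types were present: the summed CPM of 6 NK cell markers was between 480.9 and 1797.8 in monocytes and at most 135.7 elsewhere, and 10 erythroid markers summed to between 876.6 and 22626.9 in RPMs. Counts of *Il1rl1* were 28, 19, 12 and 13 in WT monocytes against 51, 73, 71 and 64 in monocytes labelled *Il1rl1*-/-, and 18, 15, 13 and 24 against 50, 76, 42 and 65 in pre-RPMs, higher with the *Il1rl1*-/- label in both. In RPMs, the counts were 5, 9, 7 and 13 against 1, 7, 3 and 6. Counts summed over a whole gene cannot decide the genotype, which is therefore given as labelled throughout.

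The antioxidant response element has the core letters TGACNNNGC, and the promoters of several genes that the comparisons below turn on hold it or the looser form TGANNNNGC. In RefSeq promoters of GRCm38.p6, each reaching from 250 bases before to 50 bases after a transcription start, 32 of the 35 genes had 40 windows, and none was found for *Prdx6*, *Gsr* and *Gclc*. With both strands searched, 9 of the 40 windows (22.5%) held the core, against 12.4% of all 32851 promoters, and 17 (42.5%) held the looser form, which includes the core, against 41.3%. The stretches shown were chosen with the comparisons known. The match marked upstream of the start is the core in *Gclm*, *Prdx1* and *Txnrd1* and the looser form in *Osgin1* and *Srxn1*, genes higher in RPMs. It is the looser form in *Prdx5*, lower there. The core also lay in windows of *Nfe2l2*, *Mafg*, *Maff*, *Sod1* and *Gsta3*, and after the start of *Srxn1*. The looser form alone also lay in windows of *Acsl4*, *Gstp1*, *Keap1* and *Txn2*, which the rule for cell types, given below, did not call. Windows of *Txn1*, *Txnrd2*, *Prdx2* and *Cat*, also higher in RPMs, held neither form, nor did those of *Bach1*, lower there. Each stretch is on the strand of its gene, plus except for *Prdx5*, with the matched 9 bases in capitals. In all but *Srxn1* the marked match reads on the opposite strand.
*Gclm*, chr3:122245377-122245476, upstream of the gene: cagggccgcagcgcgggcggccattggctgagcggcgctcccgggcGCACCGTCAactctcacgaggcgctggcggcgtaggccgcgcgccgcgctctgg
*Prdx1*, chr4:116685420-116685519, upstream of the gene: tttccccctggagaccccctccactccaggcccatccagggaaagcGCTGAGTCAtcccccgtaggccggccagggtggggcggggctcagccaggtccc
*Txnrd1*, chr10:82859068-82859167, between exons of the longer transcripts: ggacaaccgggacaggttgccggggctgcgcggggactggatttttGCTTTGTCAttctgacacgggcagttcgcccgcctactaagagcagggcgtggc
*Osgin1*, chr8:119437002-119437101, between exons of the longer transcripts: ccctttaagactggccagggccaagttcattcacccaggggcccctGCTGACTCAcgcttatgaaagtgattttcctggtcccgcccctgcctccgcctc
*Srxn1*, chr2:152105433-152105523, the last 8 bases of it in the first exon: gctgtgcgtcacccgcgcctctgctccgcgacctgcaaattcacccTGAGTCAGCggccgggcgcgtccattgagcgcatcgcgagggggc
*Prdx5*, chr19:6910141-6910240, upstream of the gene: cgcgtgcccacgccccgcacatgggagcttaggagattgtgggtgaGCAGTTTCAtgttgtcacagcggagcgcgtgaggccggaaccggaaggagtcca
The match begins 134 bases before the start in *Gclm*, 133 in *Prdx1*, 92 in *Txnrd1*, 99 in *Osgin1*, 45 in *Srxn1* and 88 in *Prdx5*. *Srxn1* holds further looser matches 158 and 57 bases before the start, the latter unmarked in its stretch, and a core match from base 29 after the start. *Slc7a11*, whose counts were lower in RPMs, holds looser matches 97 and 45 bases before its start. The marked matches of *Prdx1*, *Osgin1* and *Srxn1* also hold the letters TGACTCA or their complement, the site of AP-1 factors. A match describes the letters only, and whether a factor binds there was not measured by RNA-seq.

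From monocytes to pre-RPMs, no gene of the list passed the rule for cell types, which asks for an adjusted p under 0.01 together with a log2 fold change beyond 1 in either direction. This held for 30 genes tested in WT mice, where 3.57% of all 11091 genes tested were called, and for 31 tested in mice labelled *Il1rl1*-/-, where 4.85% of 11196 were called (edgeR's quasi-likelihood test). DESeq2 called none either, whereas at an unadjusted p under 0.05, 13 of 30 and 10 of 31 genes passed, against 31.9% and 30.6% of all genes. At an adjusted p under 0.05 with no fold threshold, edgeR called 2 of 30 in WT, *Osgin1* higher and *Txnrd1* lower, where 14.6% of all genes passed, 5.79% higher and 8.85% lower. It called 6 of 31 in the other genotype, *Bach1*, *Mafg*, *Slc7a11* and *Cat* higher and *Txnrd1* and *Prdx6* lower, where 17.1% passed, 8.24% higher and 8.83% lower. The median log2 fold change of the list was 0.30 in WT and 0.15 in mice labelled *Il1rl1*-/-, with 23 of 30 and 23 of 31 genes above 0, and that of all genes was 0.01 and −0.00.

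*Txnrd1*, the cytosolic thioredoxin reductase, was the gene of the list below that looser threshold in both genotypes at this step. Its level was 28.4, 29.1, 18.4 and 23.0 CPM in WT monocytes of mice 1 to 4 and 17.5, 14.8, 14.8 and 12.9 CPM in WT pre-RPMs. It was 39.1, 27.9, 20.8 and 17.4 CPM against 15.9, 15.2, 16.4 and 9.73 CPM in mice labelled *Il1rl1*-/-. Every pre-RPM library lay below every monocyte library of its genotype, and the log2 fold change came to −0.73 (SE 0.17, edgeR adjusted p = 0.0191) in WT and −0.88 (edgeR adjusted p = 0.0328) in mice labelled *Il1rl1*-/-. Without the 4 monocyte libraries with the most NK cell RNA, those of mice 1 and 2 of each genotype, these were −0.48 (edgeR adjusted p = 0.166) and −0.44 (edgeR adjusted p = 0.229), so that neither stayed under the looser threshold. All 6 NK cell markers were lower in WT pre-RPMs than in WT monocytes. Of 9 neutrophil markers tested, 5 were lower and 1, *Retnlg*, was higher, and the list of 10 summed to between 763.2 and 2481.4 CPM in monocytes of both genotypes and between 169.2 and 407.1 CPM in pre-RPMs. Of 5 plasma cell markers tested, 3 were lower in WT pre-RPMs and 2 in those labelled *Il1rl1*-/-, and the list of 6 summed to between 413.1 and 1868.8 CPM in monocytes and between 128.8 and 453.4 CPM in pre-RPMs. The part of neutrophil and plasma cell RNA in these differences was not tested. NK cell RNA cannot be told apart from anything else that the monocyte libraries of mice 1 and 2 share.

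*Bach1*, the repressor of antioxidant response elements, was at 63.3, 45.9, 133 and 116 CPM in WT monocytes and at 159, 142, 168 and 151 CPM in WT pre-RPMs. In the other genotype it was at 57.8, 83.0, 117 and 109.7 CPM and at 157, 158, 168 and 159 CPM. Pre-RPMs were above monocytes throughout, but the monocytes of mice 1 and 2, the libraries with the most NK cell RNA, were the lowest of each genotype. The log2 fold change was 0.79 (SE 0.28, edgeR adjusted p = 0.0737) in WT and 0.81 (edgeR adjusted p = 0.00882) in mice labelled *Il1rl1*-/-, and 0.32 (edgeR adjusted p = 0.198) and 0.50 (edgeR adjusted p = 0.00515) without those libraries. *Osgin1*, an Nrf2 target linked to growth inhibition under oxidative stress, was at 2.15, 1.81, 0.691 and 0.752 CPM in WT monocytes and 4.67, 2.63, 3.69 and 2.87 CPM in WT pre-RPMs, which did not overlap, and the log2 fold change came to 1.33 (SE 0.39, edgeR adjusted p = 0.0430). It was highest in the 2 monocyte libraries rich in NK cell RNA, and without those the value was 2.22 (edgeR adjusted p = 0.0178). With the other genotype label it was 0.99 (edgeR adjusted p = 0.0842).

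All calls of the list by the rule for cell types fell at the step from pre-RPMs to RPMs. In WT mice, 13 of 30 genes tested were called, 10 higher and 3 lower in RPMs, where 24.7% of all 11239 genes tested were called, 14% higher and 10.7% lower. In mice labelled *Il1rl1*-/-, 15 of 30 were called, 13 higher and 2 lower, against 26% of 11437 genes, 14.5% higher and 11.5% lower. The median log2 fold change of the list was 0.48 in WT and 0.45 in mice labelled *Il1rl1*-/-, and that of all genes was −0.00 in both. With an adjusted p under 0.05 alone, 23 of 30 and 19 of 30 genes passed, against 50.4% and 54.1% of all genes (edgeR). The genes higher in both genotypes were *Gclm*, *Gclc*, *Txn1*, *Txnrd1*, *Txnrd2*, *Srxn1*, *Prdx1*, *Prdx2*, *Cat* and *Osgin1*, and those lower in both were *Bach1* and *Prdx5*. This step shares its pre-RPM libraries with the step before it.

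**Figure D1:**
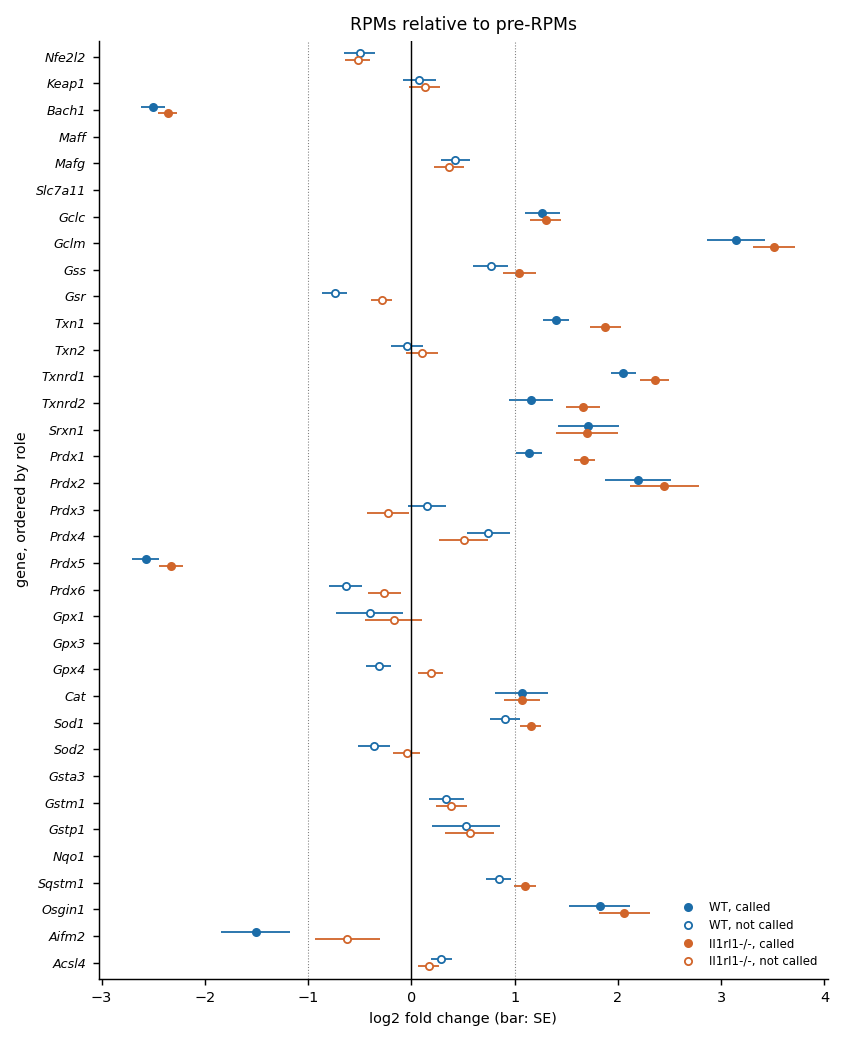
Log2 fold change from pre-RPMs to RPMs (x axis) of each gene tested (y axis, in role groups), with WT in blue and mice labelled *Il1rl1*-/- in orange, bars giving the SE, filled symbols the called genes and dotted lines an absolute value of 1. *Gclm* lies farthest to the right, at 3.14 and 3.51, and *Bach1* and *Prdx5* farthest to the left, between −2.57 and −2.33.

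**Figure D2:**
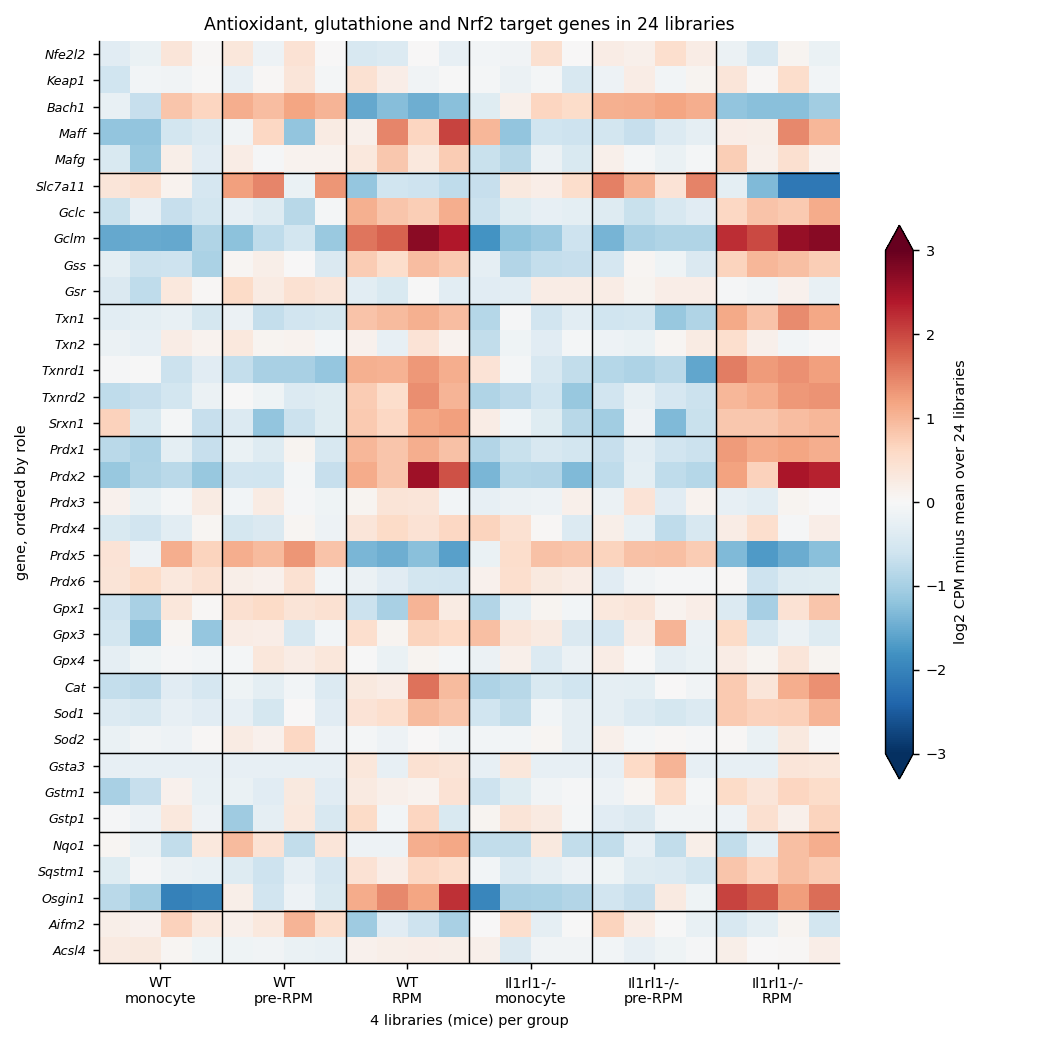
Log2 CPM of the 35 genes (rows, in role groups) in the 24 libraries (columns, by group and mouse), each as the difference from the gene's mean over all libraries, with colours ending at −3 and 3. RPM columns stand apart from the monocyte and pre-RPM columns in *Gclm*, *Txnrd1* and *Prdx2* (higher) and in *Bach1* and *Prdx5* (lower).

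Of the regulators, *Bach1* fell and the others did not pass the rule. *Bach1* (chromosome 16, 87698945 to 87733346, plus strand, GRCm38) was at 25.3, 30.3, 26.6 and 30.8 CPM in WT RPMs and at 32.4, 31.0, 31.0 and 35.5 CPM in RPMs labelled *Il1rl1*-/-. All 8 RPM libraries lay far below the pre-RPM range of 142 to 168 CPM, and the mean went from 155 ± 11.4 CPM (SD, n = 4) to 28.2 ± 2.72 CPM in WT. The log2 fold change was −2.50 (SE 0.11, edgeR adjusted p = 5.17e-10) in WT and −2.36 (SE 0.09, edgeR adjusted p = 9.28e-12) in mice labelled *Il1rl1*-/-. *Nfe2l2*, which encodes Nrf2 itself, was at 68.4, 48.5, 73.8 and 54.7 CPM in WT pre-RPMs and at 38.7, 40.5, 54.4 and 45.9 CPM in WT RPMs, which overlapped. With the *Il1rl1*-/- label it was at 63.1, 60.1, 77.7 and 63.4 CPM and, lower in every library, at 47.96, 39.1, 57.2 and 47.1 CPM. Monocytes, at 42.7, 47.3, 70.2 and 55.7 CPM in WT and 51.7, 50.5, 75.9 and 54.7 CPM with the other label, overlapped with pre-RPMs. Its log2 fold change from pre-RPMs to RPMs was −0.50 (SE 0.15, edgeR adjusted p = 0.0119) in WT and −0.52 (SE 0.12, edgeR adjusted p = 0.00203) in mice labelled *Il1rl1*-/-, below the fold threshold in both. *Keap1*, the sensor that holds Nrf2, was at 13.8, 19.9, 19.6 and 20.9 CPM in WT monocytes, 17.7, 21.6, 27.3 and 20.1 CPM in WT pre-RPMs and 29.1, 24.3, 19.6 and 20.9 CPM in WT RPMs. With the *Il1rl1*-/- label it was at 20.3, 18.6, 20.3 and 14.9 CPM, 18.8, 24.7, 20.0 and 22.5 CPM, and 27.0, 21.5, 30.4 and 19.9 CPM. All 3 cell types overlapped in each genotype, and *Keap1* had a log2 fold change of 0.08 in WT (95% interval −0.27 to 0.42) and 0.13 in mice labelled *Il1rl1*-/- (−0.19 to 0.44).

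*Mafg*, a small Maf that partners both Nrf2 and Bach1, was at 17.5, 11.03, 27.6 and 19.1 CPM in WT monocytes, 28.7, 23.7, 26.3 and 26.04 CPM in WT pre-RPMs and 30.4, 42.9, 30.3 and 41.5 CPM in WT RPMs. With the *Il1rl1*-/- label it was at 15.1, 13.5, 21.4 and 17.6 CPM, 27.3, 23.3, 21.2 and 23.4 CPM, and 41.0, 26.9, 34.1 and 26.1 CPM. WT RPMs lay above WT pre-RPMs, whereas these groups overlapped in the other genotype, with log2 fold changes of 0.42 (edgeR adjusted p = 0.0204) and 0.36 (edgeR adjusted p = 0.0458). *Maff*, another small Maf, had too few counts to be tested, with 0, 0, 1 and 2 counts in WT monocytes, 2, 4, 0 and 3 in WT pre-RPMs and 3, 11, 4 and 15 in WT RPMs. With the *Il1rl1*-/- label it had 6, 0, 1 and 1 counts in monocytes, 1, 1, 1 and 2 in pre-RPMs, and 3, 4, 10 and 7 in RPMs.

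Of the genes of glutathione supply, both parts of the rate-limiting ligase rose. *Gclm*, its modifier subunit (chromosome 3, 122245557 to 122270732, plus strand), was at 3.50, 5.01, 5.90 and 3.82 CPM in WT pre-RPMs and at 27.9, 31.3, 60.1 and 48.5 CPM in WT RPMs. With the *Il1rl1*-/- label it was at 3.09, 4.26, 4.48 and 4.49 CPM and at 42.8, 36.1, 56.4 and 60.7 CPM. The groups were far apart in both genotypes, with the largest log2 fold changes of the list, 3.14 (SE 0.28, edgeR adjusted p = 3.44e-07), or 8.84-fold, in WT and 3.51 (SE 0.20, edgeR adjusted p = 8.56e-10), or 11.4-fold, in mice labelled *Il1rl1*-/-. Mice 3 and 4 of each genotype, whose RPM libraries held the most erythroid RNA (given below), lay above mice 1 and 2, and without those libraries *Gclm* was at 2.65 (edgeR adjusted p = 6.55e-08) and 3.20 (edgeR adjusted p = 2.13e-10), still called. Monocytes, at 2.76, 2.81, 2.76 and 4.51 CPM in WT and 2.22, 3.59, 3.89 and 5.58 CPM with the other label, overlapped with pre-RPMs. *Gclc*, the catalytic subunit, went from 9.46 ± 2.14 CPM (SD, n = 4) in WT pre-RPMs to 23.6 ± 2.77 CPM in WT RPMs, a log2 fold change of 1.27 (SE 0.17, edgeR adjusted p = 2.56e-05), and 1.30 (SE 0.15, edgeR adjusted p = 2.86e-06) in mice labelled *Il1rl1*-/-.

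*Gss*, which adds glycine in the last step of glutathione synthesis, was called in mice labelled *Il1rl1*-/- and not in WT. Its log2 fold change was 1.04 (SE 0.16, edgeR adjusted p = 4.80e-05) and 0.77 (SE 0.17, edgeR adjusted p = 0.00160), without overlap of pre-RPMs and RPMs in either, and the difference between the genotypes did not pass the interaction test described below. *Gsr*, which returns oxidized glutathione to its reduced form, was at 54.6, 43.2, 50.4 and 46.6 CPM in WT pre-RPMs and lower, at 28.9, 26.4, 36.2 and 29.2 CPM, in WT RPMs. Its log2 fold change, −0.74 (SE 0.12, edgeR adjusted p = 0.000161), was within the fold threshold. The synthesis genes and the reductase had opposite signs in both genotypes, *Gsr* being at −0.29 (edgeR adjusted p = 0.0243) in mice labelled *Il1rl1*-/-. *Slc7a11*, the cystine transporter, had 17, 18, 5 and 18 counts in WT pre-RPMs and 2, 4, 3 and 3 in WT RPMs, and 21, 20, 7 and 26 against 5, 2, 0 and 0 in mice labelled *Il1rl1*-/-. Its counts were too low for the filter used here, and without that filter its log2 fold change was −2.38 (edgeR adjusted p = 1.10e-05) in WT and −3.41 (edgeR adjusted p = 4.80e-10) in mice labelled *Il1rl1*-/-.

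Of the 5 thioredoxin genes, 4 rose in both genotypes. *Txnrd1* (chromosome 10, 82833951 to 82897712, plus strand), lowest in pre-RPMs, was at 61.7, 60.5, 72.2 and 63.1 CPM in WT RPMs and at 84.9, 71.7, 75.7 and 69.7 CPM in RPMs labelled *Il1rl1*-/-. All RPM libraries lay above all pre-RPM and monocyte libraries, with log2 fold changes against pre-RPMs of 2.05 (SE 0.12, edgeR adjusted p = 6.45e-09) and 2.36 (SE 0.14, edgeR adjusted p = 1.17e-09). *Txn1*, the cytosolic thioredoxin that the reductase keeps reduced, went from 22.6, 15.3, 17.0 and 17.7 CPM in WT pre-RPMs to 46.6, 49.5, 53.6 and 48.7 CPM in WT RPMs. Its log2 fold change was 1.40 (SE 0.13, edgeR adjusted p = 5.06e-07) in WT and 1.88 (SE 0.15, edgeR adjusted p = 3.24e-08) in mice labelled *Il1rl1*-/-. The mitochondrial pair moved apart: *Txnrd2*, the reductase, had log2 fold changes of 1.16 (SE 0.21, edgeR adjusted p = 0.000411) and 1.66 (SE 0.16, edgeR adjusted p = 3.86e-07), whereas *Txn2*, its thioredoxin, had −0.05 (95% interval −0.38 to 0.29) and 0.10 (−0.22 to 0.43).

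*Txnrd2* was at 8.64, 7.90, 6.39 and 6.69 CPM in WT pre-RPMs and at 14.9, 12.7, 23.6 and 17.9 CPM in WT RPMs, and at 17.6, 19.0, 21.8 and 22.9 CPM in RPMs labelled *Il1rl1*-/-, again with mice 3 and 4 above mice 1 and 2. Without the RPM libraries of mice 3 and 4, its log2 fold change was 0.84 (edgeR adjusted p = 0.00566) in WT, no longer called, and 1.52 (edgeR adjusted p = 6.32e-06) in mice labelled *Il1rl1*-/-. *Srxn1*, the sulfiredoxin that repairs overoxidized peroxiredoxins, rested on few counts, 32, 10, 12 and 11 in WT monocytes, 9, 4, 7 and 9 in WT pre-RPMs and 25, 23, 26 and 32 in WT RPMs. It had, with the *Il1rl1*-/- label, 14, 13, 10 and 7 counts in monocytes, 5, 15, 3 and 9 in pre-RPMs and 24, 33, 27 and 29 in RPMs. In CPM, RPMs lay above pre-RPMs without overlap and mice 3 and 4 above mice 1 and 2, with log2 fold changes of 1.71 (SE 0.30, edgeR adjusted p = 0.000231) and 1.70 (SE 0.30, edgeR adjusted p = 0.000180), and 1.44 (edgeR adjusted p = 0.00567) and 1.62 (edgeR adjusted p = 0.00283) without the RPM libraries of mice 3 and 4.

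**Figure D3:**
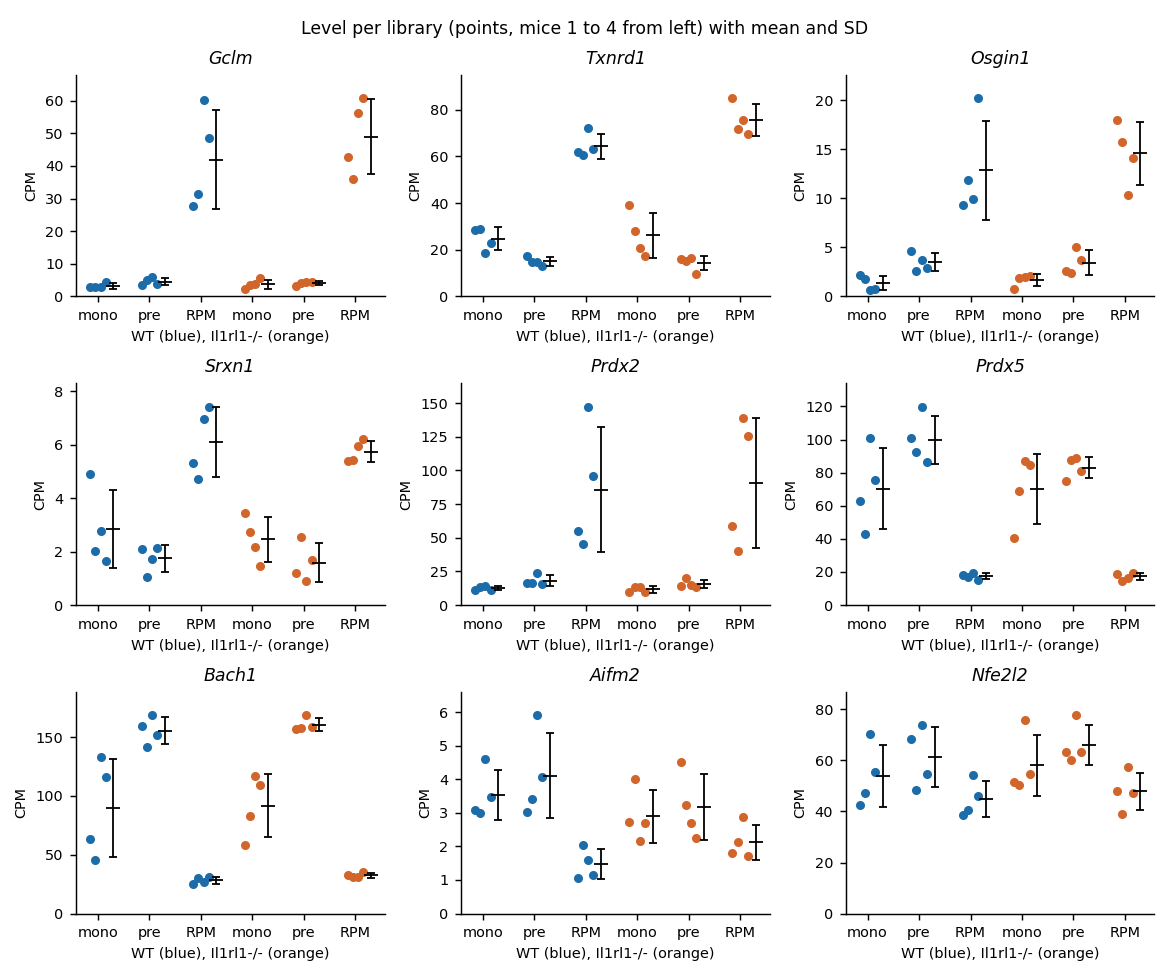
CPM (y axis, from 0) of 9 genes in the 6 groups (x axis), with points for mice 1 to 4 from left to right and bars for the mean ± SD (n = 4). *Gclm*, *Txnrd1*, *Osgin1*, *Srxn1* and *Prdx2* are highest in RPMs, *Bach1* and *Prdx5* lowest there, and *Nfe2l2* overlaps between monocytes and pre-RPMs.

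Of the 6 peroxiredoxins, most of which reduce peroxides with electrons from thioredoxin, 2 rose and 1 fell in both genotypes. *Prdx1*, cytosolic, was at 43.9, 38.5, 53.6 and 36.1 CPM in WT pre-RPMs and at 101, 90.2, 108 and 92.5 CPM in WT RPMs, which did not overlap. Its log2 fold change was 1.14 (SE 0.13, edgeR adjusted p = 4.49e-06) in WT and 1.67 (SE 0.10, edgeR adjusted p = 1.84e-09) in mice labelled *Il1rl1*-/-. *Prdx5* (chromosome 19, 6906697 to 6910106, minus strand), found in mitochondria, peroxisomes and cytosol, was at 101, 92.2, 119.8 and 86.3 CPM in WT pre-RPMs and at 17.9, 16.8, 19.6 and 15.1 CPM in WT RPMs. With the *Il1rl1*-/- label it was at 74.8, 87.4, 89.0 and 80.8 CPM and at 18.7, 14.3, 16.5 and 19.5 CPM. Monocytes were at 62.7, 42.7, 101 and 75.4 CPM in WT and 40.8, 68.8, 86.9 and 84.7 CPM with the other label. RPMs were below every monocyte and pre-RPM library of their genotype, with log2 fold changes against pre-RPMs of −2.57 (SE 0.13, edgeR adjusted p = 1.65e-09) and −2.33 (SE 0.11, edgeR adjusted p = 1.25e-10). The remaining 3, *Prdx3* of mitochondria, *Prdx4* of the endoplasmic reticulum and *Prdx6*, which draws on glutathione, were not called, with log2 fold changes of 0.15, 0.75 and −0.64 in WT and −0.23, 0.51 and −0.26 in mice labelled *Il1rl1*-/-.

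*Prdx2* and *Cat*, both abundant in red blood cells, rose in RPMs but varied with the erythroid RNA of the library. *Prdx2* (chromosome 8, 84969587 to 84974834, plus strand) was at 16.6, 16.3, 23.9 and 15.3 CPM in WT pre-RPMs and at 55.1, 45.2, 147 and 95.8 CPM in WT RPMs. In mice labelled *Il1rl1*-/- it was at 14.5, 20.3, 14.6 and 13.7 CPM and at 58.5, 40.4, 139 and 125 CPM. Monocytes were at 11.2, 13.2, 14.0 and 11.1 CPM in WT and 9.39, 13.7, 13.4 and 9.71 CPM with the other label. No RPM library overlapped the pre-RPMs, but mice 3 and 4 of each genotype lay above mice 1 and 2. *Cat*, the catalase that breaks down hydrogen peroxide, was at 54.9, 48.7, 56.3 and 45.2 CPM in WT pre-RPMs and at 73.8, 69.3, 187 and 116 CPM in WT RPMs, and at 104, 76.5, 129 and 156 CPM in RPMs labelled *Il1rl1*-/-. It showed the same split of the mice.

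The summed CPM of the 10 erythroid markers was 1969.3, 1382.1, 22626.9 and 9562.0 in WT RPMs and 2717.1, 876.6, 10817.8 and 14683.8 in RPMs labelled *Il1rl1*-/-, highest in the same mice 3 and 4. It was between 6.5 and 23.7 in monocytes and between 11.4 and 589.9 in pre-RPMs, and all 10 markers were called higher in RPMs in both genotypes. With all libraries, *Prdx2* had log2 fold changes of 2.20 (SE 0.32, edgeR adjusted p = 5.11e-05) in WT and 2.45 (SE 0.33, edgeR adjusted p = 1.48e-05) in mice labelled *Il1rl1*-/-, and without the RPM libraries of mice 3 and 4 it had 1.43 (edgeR adjusted p = 5.72e-06) and 1.56 (edgeR adjusted p = 1.37e-06), still called. *Cat* had 1.07 (SE 0.26, edgeR adjusted p = 0.00312) and 1.07 (SE 0.18, edgeR adjusted p = 9.65e-05) with all libraries and 0.43 (edgeR adjusted p = 0.0145) and 0.70 (edgeR adjusted p = 0.000356) without those, no longer called in either genotype. With the mouse number as a block, *Cat* in WT was at 0.97 (edgeR adjusted p = 0.000693), within the fold threshold. In the fits without mice 3 and 4, the RPM libraries left still had erythroid sums between 876.6 and 2717.1 CPM, above every pre-RPM library. Those fits thus do not remove erythroid RNA, and its part in what remained, also for other genes, was not tested. As mice 3 and 4 had the most in both genotypes, erythroid RNA cannot be told apart from anything else their libraries share. In sorted bulk samples such as these, fewer cells of a type and less RNA per cell cannot be told apart.

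**Figure D4:**
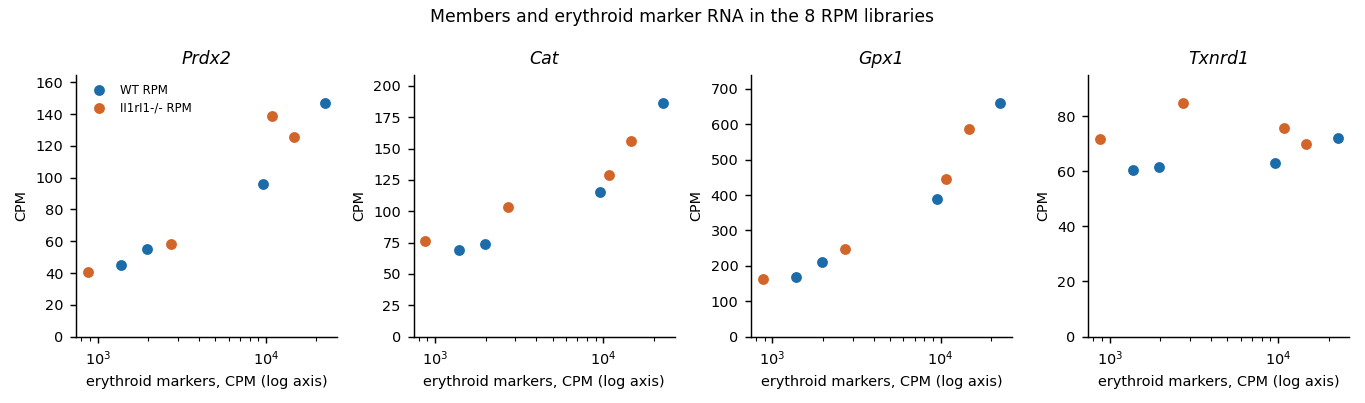
CPM of *Prdx2*, *Cat*, *Gpx1* and *Txnrd1* (y axes, from 0) against the summed CPM of 10 erythroid markers (x axis, log scale) in the 8 RPM libraries, WT in blue and labelled *Il1rl1*-/- in orange. The 4 libraries to the right, with erythroid sums from 9562.0 to 22626.9, are the highest in *Prdx2*, *Cat* and *Gpx1*, whereas *Txnrd1* stays between 60.5 and 84.9 CPM.

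*Gpx1*, the abundant cytosolic glutathione peroxidase and also a red cell enzyme, had the widest range of the list within RPMs. It was at 461, 492, 429 and 450.4 CPM in WT pre-RPMs and at 209.9, 168, 661 and 390.0 CPM in WT RPMs, and at 248, 164, 444 and 586 CPM in RPMs labelled *Il1rl1*-/-, a ratio of 4.03 between the highest and the lowest RPM library. The groups overlapped, and the log2 fold change was −0.40 (SE 0.32, edgeR adjusted p = 0.318) in WT and −0.17 (edgeR adjusted p = 0.627) in mice labelled *Il1rl1*-/-. Without the RPM libraries of mice 3 and 4, it was −1.33 (edgeR adjusted p = 4.54e-06), which passes the rule, and −0.99 (edgeR adjusted p = 5.45e-05), just short of it. Among the 31 genes with more than 3 counts in all 8 RPM libraries, the ratio was next widest for *Prdx2* (3.65), and *Cat* had 2.69. *Gpx4*, which reduces lipid peroxides in membranes, had log2 fold changes of −0.32 and 0.19, neither called, and *Gpx3*, the secreted form, had at most 13 counts in any library and was not tested at this step.

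The superoxide dismutases of the cytosol and of mitochondria differed. *Sod1*, the cytosolic enzyme, went from 51.6 ± 8.22 CPM (SD, n = 4) in WT pre-RPMs to 100.1 ± 17.7 CPM in WT RPMs without overlap, a log2 fold change of 0.91 (SE 0.15, edgeR adjusted p = 0.000125) that stayed within the fold threshold, and it was called in mice labelled *Il1rl1*-/- at 1.16 (SE 0.10, edgeR adjusted p = 1.58e-07). In WT RPMs, *Sod1* was at 82.7 and 87.5 CPM in mice 1 and 2 and at 119 and 111 CPM in mice 3 and 4, whose libraries held more erythroid RNA. RPMs labelled *Il1rl1*-/- were at 107, 99.5, 101 and 126 CPM, without that split. *Sod2*, the mitochondrial enzyme, had −0.36 (95% interval −0.69 to −0.03) and −0.05 (−0.32 to 0.23), neither called.

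Of the genes that act downstream of Nrf2 in other ways, *Osgin1* rose and *Nqo1* was barely counted. *Osgin1* (chromosome 8, 119434124 to 119446256, plus strand) was at 9.36, 11.9, 9.92 and 20.2 CPM in WT RPMs and at 18.0, 15.8, 10.3 and 14.1 CPM in RPMs labelled *Il1rl1*-/-. Pre-RPMs labelled *Il1rl1*-/- were at 2.61, 2.38, 5.08 and 3.74 CPM and monocytes with that label at 0.742, 1.90, 1.95 and 2.07 CPM. RPMs lay above all pre-RPM libraries, with log2 fold changes of 1.83 (SE 0.29, edgeR adjusted p = 0.000129) and 2.06 (SE 0.25, edgeR adjusted p = 3.63e-06). *Sqstm1*, the autophagy receptor p62 that competes for Keap1, was at 62.6, 52.7, 69.1 and 57.3 CPM in WT pre-RPMs and at 110.4, 94.3, 127 and 118 CPM in WT RPMs, without overlap. Its log2 fold change was 0.85 (SE 0.12, edgeR adjusted p = 4.88e-05) in WT, within the fold threshold, and 1.10 (SE 0.11, edgeR adjusted p = 4.06e-07) in mice labelled *Il1rl1*-/-, which passed. *Nqo1*, a quinone reductase widely used as an Nrf2 readout, had at most 5 counts in any library and 40 over all 24, so that no difference was detectable at this depth.

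Of the glutathione transferases, which conjugate electrophiles, *Gstm1* had log2 fold changes of 0.34 and 0.39 and *Gstp1* 0.53 and 0.56, none called, and *Gsta3* had at most 2 counts in any library. Reads of *Gstp1* that also match its near copy *Gstp2* were not counted, so its level is uncertain, and the same holds for *Prdx1*, *Gpx1* and *Txn1*, which have processed copies in the genome. The genes of lipid peroxidation were *Aifm2*, which encodes the ferroptosis suppressor FSP1, and *Acsl4*, which loads membranes with oxidizable fatty acids. *Aifm2* was at 3.04, 3.43, 5.90 and 4.06 CPM in WT pre-RPMs and at 1.06, 2.04, 1.61 and 1.16 CPM in WT RPMs, with 5, 10, 6 and 5 counts in the latter, and its log2 fold change was −1.51 (SE 0.33, edgeR adjusted p = 0.00178). In mice labelled *Il1rl1*-/- it was at 4.51, 3.24, 2.69 and 2.25 CPM and at 1.80, 2.13, 2.86 and 1.71 CPM, which overlapped, with −0.62 (SE 0.31, edgeR adjusted p = 0.110). Monocytes were at 3.07, 3.01, 4.61 and 3.46 CPM in WT and 2.72, 4.01, 2.16 and 2.69 CPM with the other label. Without the RPM libraries of mice 3 and 4, the WT value was −1.43 (edgeR adjusted p = 0.0181) and no longer called. *Acsl4* had log2 fold changes of 0.29 and 0.17.

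Markers of other cells also moved at this step, beside the erythroid ones. The summed CPM of 10 neutrophil markers went from between 169.2 and 407.1 in pre-RPMs to between 1.8 and 22.3 in RPMs, with all 7 tested lower in both genotypes. Of 8 endothelial and stromal markers, *Pecam1* and *Stab2* were tested and higher in RPMs, and they carried most of the list's sum of 291.3 to 363.9 CPM there, against 11.6 to 22.4 CPM in pre-RPMs. *Cdh5*, a defining endothelial marker, had at most 5 counts in any library, *Kdr* between 0 and 8 in RPMs, and *Col1a1*, *Col3a1* and *Dcn* at most 3 in any library. T cell markers were higher for 3 of 4 tested in WT and 1 of 4 with the other label, the list of 6 summing to between 11.4 and 26.1 CPM in pre-RPMs and between 42.1 and 99.2 CPM in RPMs. NK cell markers were lower for 3 of 5 tested and 1 of 4, dendritic cell markers lower for 2 of 4 and 3 of 4, with *Zbtb46* higher in WT. Plasma cell markers were lower for none of 3 tested in WT and 1 of 3 with the other label. Eosinophil markers were higher for 1 of 2 tested in WT, and 1 of 3 was higher and 1 lower with the other label. The list of 6 summed to between 37.3 and 78.0 CPM in pre-RPMs and between 274.5 and 399.9 CPM in RPMs, most of the latter from *Ccr3*. The 1 basophil and mast cell marker tested in WT was lower. The part of these markers in the differences above was not tested. In all, leaving out the RPM libraries of mice 3 and 4 left 12 called genes in WT, 8 higher and 4 lower, and 15 in mice labelled *Il1rl1*-/-, 12 higher and 3 lower, where 22.4% and 24.1% of all genes were called, and 10 and 14 of them were among those called with all libraries.

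Of 54 other genes of the same pathways, listed alike, 41 could be tested at the step from pre-RPMs to RPMs, with 15 higher and 4 lower in WT, where 14% and 10.7% of all genes were, and 16 higher and 3 lower in mice labelled *Il1rl1*-/-, where 14.5% and 11.5% were. *Hmox1*, the heme oxygenase under control of Nrf2 and Bach1, was at 18.0, 14.0, 64.4 and 26.5 CPM in WT pre-RPMs and at 991, 888, 1010.4 and 1243 CPM in WT RPMs, far apart, with log2 fold changes of 5.03 (SE 0.40, edgeR adjusted p = 1.15e-07) and 6.06 (SE 0.13, edgeR adjusted p = 3.73e-14). *Blvrb*, a biliverdin reductase, had 3.40 and 4.01, and *Ephx1*, an epoxide hydrolase, 3.30 and 3.39. *Gstk1*, a mitochondrial and peroxisomal transferase, had 2.96 and 2.58, but rested on few counts in pre-RPMs. These were 5, 3, 0 and 3 in WT and 3, 13, 2 and 5 in mice labelled *Il1rl1*-/-, several of them within the floor. The methionine sulfoxide reductases *Msrb1* and *Msra* fell, by 3.37 and 1.52 on the log2 scale in WT and by 3.78 and 1.43 in mice labelled *Il1rl1*-/-. *Pgd*, which makes NADPH in the pentose phosphate pathway, fell by 1.10 and 1.05. *Mgst1*, a microsomal transferase, fell by 1.05 in WT and was at −0.55 in mice labelled *Il1rl1*-/-, where it was not called. From monocytes to pre-RPMs, none of 35 such genes was called in WT (3.57% of all genes) and 3 of 36 were in mice labelled *Il1rl1*-/- (4.85%), *Hmox1* higher and *Bach2* and *Sesn3* lower.

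Per kb of exon, *Gpx1* was the most abundant gene of the list in each WT cell type, at a mean of 196, 318 and 248 CPM per kb in monocytes, pre-RPMs and RPMs. Its neighbours in that order changed: *Prdx5* followed in monocytes (32.9 CPM per kb) and pre-RPMs (46.7), with *Bach1* next in pre-RPMs (25.1), whereas *Txn1* (47.2), *Cat* (42.6), *Sqstm1* (33.5), *Prdx1* (32.2) and *Prdx2* (28.1) followed in RPMs. The differences among those 5 were small beside the spread of *Cat* and *Prdx2* between mice. *Gclm* went from 0.725 to 6.66 CPM per kb between WT pre-RPMs and RPMs.

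Between genotypes, no gene of the list passed an adjusted p under 0.05 in any cell type. Of the 29, 30 and 30 genes tested in monocytes, pre-RPMs and RPMs, none was called by edgeR or by DESeq2, where edgeR called 0.0614%, 0.552% and 0.233% of all genes. With the mouse number as a block, edgeR called 27, 145 and 81 genes over the genome in place of 7, 59 and 26, and again none of the list. At an unadjusted p under 0.05, edgeR's count was 0 of 29 for monocytes (3.59% of all genes), 5 of 30 for pre-RPMs (8.8%) and 5 of 30 for RPMs (7.27%). The 5 in pre-RPMs, *Gsr*, *Prdx1*, *Prdx5*, *Prdx6* and *Gpx1*, were all lower in the libraries labelled *Il1rl1*-/-, and the 5 in RPMs, *Txnrd1*, *Prdx1*, *Gpx4*, *Gstm1* and *Sqstm1*, all higher. The lowest adjusted p was 0.997, 0.466 and 0.529 in the 3 cell types. In RPMs, *Sqstm1* was at 146, 127, 153 and 139 CPM in the libraries labelled *Il1rl1*-/-, the lowest of which lay just above the highest WT library, with a log2 difference of 0.33 (SE 0.11, edgeR adjusted p = 0.529). *Prdx1* was at 123, 109, 115 and 108 CPM in RPMs labelled *Il1rl1*-/-, against 101, 90.2, 108 and 92.5 CPM in WT, with a difference of 0.21 (edgeR adjusted p = 0.669).

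**Figure D5:**
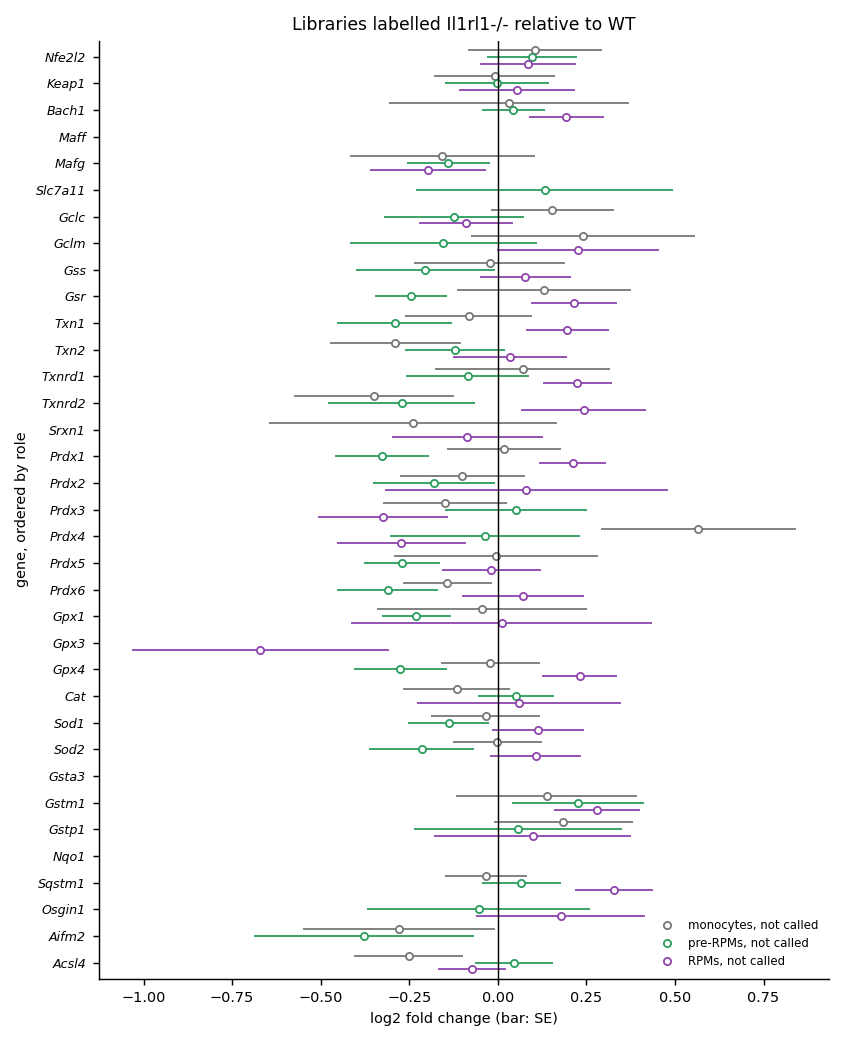
Log2 difference between libraries labelled *Il1rl1*-/- and WT (x axis) for each gene tested (y axis) in monocytes, pre-RPMs and RPMs, with bars giving the SE. No gene was called, and the values lie between −0.35 and 0.57 in monocytes, −0.38 and 0.23 in pre-RPMs and −0.67 and 0.33 in RPMs.

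The 95% interval of the log2 difference lay within 1 of 0 for 27 of 29 genes in monocytes, with *Srxn1* and *Prdx4* beyond, for 29 of 30 in pre-RPMs, with *Aifm2* beyond, and for 29 of 30 in RPMs, with *Gpx3* beyond. *Nfe2l2* differed by 0.10 in monocytes (95% interval −0.32 to 0.53), by 0.10 in pre-RPMs (−0.17 to 0.37) and by 0.09 in RPMs (−0.21 to 0.38). For *Gpx1* in RPMs, whose levels varied with erythroid RNA, the interval was −0.91 to 0.93. The list had a median difference of −0.02 in monocytes, of −0.13 with 9 of 30 genes above 0 in pre-RPMs, and of 0.08 with 22 of 30 above 0 in RPMs. Of the other pathway genes, *Idh1*, which makes NADPH in the cytosol, was called in pre-RPMs, with a log2 difference of −0.77 (edgeR adjusted p = 0.00248).

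Whether the steps themselves differed between genotypes was tested as an interaction. None of 32 genes was called at either step, by edgeR or DESeq2, where edgeR called 0% and 0.107% of all genes. At an unadjusted p under 0.05 none passed for monocytes to pre-RPMs (3.8% of all genes), and 4 passed for pre-RPMs to RPMs (7.52%). These were *Prdx1*, *Gpx4*, *Txn1* and *Gsr*, whose signed log2 fold change was higher by 0.55, 0.52, 0.50 and 0.47 in the mice labelled *Il1rl1*-/-. For *Prdx1* and *Txn1* this was a larger rise, for *Gsr* a smaller fall and for *Gpx4* a change of sign. The lowest adjusted p was 0.318, for *Prdx1* (edgeR). Among pre-RPMs, the WT library of mouse 3 had the highest sums of RPM markers (276.7 CPM) and erythroid markers (589.9 CPM). With that library left out, again no gene of the list was called in the interaction. Its part in the size of these differences was not tested. *Aifm2*, called in WT and not in mice labelled *Il1rl1*-/-, differed by 0.90 (95% interval −0.07 to 1.88, edgeR adjusted p = 0.706). The 95% interval lay within 1 of 0 for 26 of 32 genes at the first step and 24 of 32 at the second.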

How the data were processed

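RNA-seq libraries of sorted monocytes, pre-RPMs and RPMs were analysed. Before deposit, the authors removed adapters (cutadapt), mapped the reads (STAR) and made counts of read pairs by gene name over exons (featureCounts 1.6.2, reverse-stranded, GRCm38, per the file headers). The deposited counts are whole numbers with no normalization, and reads with several matches were left out. STAR was version 2.5.1 per the submitters' processing notes. Libraries carry total RNA, and the gene *Gm42418*, which takes up ribosomal RNA, held between 24.4% and 38.8% of counts.

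Groups were compared pairwise by the quasi-likelihood test of edgeR 4.0.16 under R 4.3.3 (filterByExpr, TMM, Benjamini-Hochberg adjustment over every gene tested), checked on simulated data. There, at an adjusted p under 0.05, between 1.52% and 9.17% of calls were false. Of 200 genes changed 2-fold, 109 were recovered from monocytes to pre-RPMs in WT, 130 from pre-RPMs to RPMs in WT and 146 between genotypes in pre-RPMs. Of 200 changed 4-fold, between 177 and 185 were. SEs came from the F statistic, and 95% intervals used its degrees of freedom. Cell types were called at adjusted p under 0.01 with a log2 fold change beyond 1, genotypes and interactions at adjusted p under 0.05. All members are named, with values in every library for the regulators and for the 5 largest rises and falls called in WT, and of the other pathway genes *Hmox1* and the 4 largest rises and falls called in WT. *Idh1* and the other members given in full were chosen after their values were seen. The members, the other pathway genes and the markers were chosen with earlier results of these data known.

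The mouse number was tried as a block. Same-numbered libraries of one genotype are labelled as the same mouse, and their deviations from group means correlated across genes at r from −0.039 to 0.139 in WT and from 0.094 to 0.306 in the other genotype. Same-numbered mice of the 2 genotypes are different animals (r from 0.045 to 0.452). The pairs of replicates differed beyond sampling noise.

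The alternatives were DESeq2 1.42.0, RLE factors, other count filters, all 24 libraries in 1 fit, an adjusted p alone, the block, each library left out, and, chosen after seeing the data, leaving out the libraries with much erythroid or NK cell RNA. Scripts used Python 3.11.15, NumPy 2.4.6, pandas 2.3.3, SciPy 1.17.1 and matplotlib 3.10.9.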

Additional observations from a re-analysis of the deposited data

Results flagged for a closer look

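Of 199 groups of 4 libraries examined, 6 held 1 library far from the other 3 by Dixon's ratio, which chance gives in about 1 of 20 groups. In WT monocytes, *Keap1* was at 13.8 CPM in mouse 1 against 19.6 to 20.9 CPM in the other mice, and *Gclm* at 4.51 CPM in mouse 4 against 2.76 to 2.81 CPM. In WT pre-RPMs, *Slc7a11* was at 1.23 CPM in mouse 3 against 3.97 to 4.74 CPM. In pre-RPMs labelled *Il1rl1*-/-, *Gclm* was at 3.09 CPM in mouse 1 against 4.26 to 4.49 CPM, and *Txnrd1* at 9.73 CPM in mouse 4 against 15.2 to 16.4 CPM. In monocytes labelled *Il1rl1*-/-, *Osgin1* was at 0.742 CPM in mouse 1 against 1.90 to 2.07 CPM.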

How the results depend on the processing

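No called gene of the list changed its direction under the alternatives run. With an adjusted p under 0.05 alone, the count of called genes was 2 in WT and 6 in mice labelled *Il1rl1*-/- from monocytes to pre-RPMs, and 23 in WT from pre-RPMs to RPMs. With each library left out in turn, the count was between 0 and 1 from monocytes to pre-RPMs in WT, the 1 being *Bach1* without WT monocyte replicate 3, between 12 and 15 from pre-RPMs to RPMs in WT, between 14 and 16 in mice labelled *Il1rl1*-/-, and 0 in the other comparisons. *Cat* in WT lost its call with the mouse number as a block (0.97), without WT RPM replicate 3 (0.70), and without WT pre-RPM replicate 2 or 4 (edgeR adjusted p = 0.0108 and 0.0134), the block changing no other call of the list. *Txnrd2* in WT was at 0.98 without WT RPM replicate 3 and 0.84 without the RPM libraries rich in erythroid RNA. In mice labelled *Il1rl1*-/-, *Cat* was at 0.89 without RPM replicate 4, and *Gss* at 0.96, 0.97 and 0.99 without pre-RPM replicate 1, pre-RPM replicate 4 and RPM replicate 2. Requiring 10 counts removed *Srxn1* and *Aifm2* from the genes tested, and DESeq2 added *Slc7a11*. Of all genes with a count, between genotypes, DESeq2 called 26, 70 and 56 in monocytes, pre-RPMs and RPMs and edgeR without a filter 139, 265 and 272, none of them on the list. Low counts limit *Srxn1*, *Aifm2*, *Slc7a11*, *Maff*, *Nqo1*, *Gsta3* and *Gpx3*. Of the other pathway genes, low counts in pre-RPMs limit *Gstk1* and *Ephx1*.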
